A study of Mus musculus with 9 samples.

Results

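Apoptotic cells are cleared by phagocytes that recognize phosphatidylserine on the dying cell, and 8 genes of this recognition step were followed across the mRNA arrays of resting, LPS-stimulated and IL-4-stimulated primary microglia. The genes were chosen by name and were Mertk, Axl and Tyro3 (the TAM receptor tyrosine kinases), Gas6 and Pros1 (their ligands), Mfge8 and Itgav (the bridging protein milk fat globule EGF factor 8 and the integrin αv chain it engages) and Timd4 (the phosphatidylserine receptor TIM-4). All 8 had a row of their own among the 21212 rows of the value table, under the gene identifiers 17289 (Mertk), 26362 (Axl), 22174 (Tyro3), 14456 (Gas6), 19128 (Pros1), 17304 (Mfge8), 16410 (Itgav) and 276891 (Timd4).

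The TAM receptors do not bind phosphatidylserine themselves. Gas6 and protein S, the product of Pros1, are vitamin K-dependent proteins that bridge the lipid and the receptor, and Mfge8 bridges the lipid and integrins of the αv chain in the same way, while TIM-4 binds the lipid directly and tethers the dying cell. In macrophages, signaling through Mertk and Axl is also known to restrain Toll-like receptor and cytokine responses, and in the brain Mertk and Axl are used by microglia to remove dying cells.

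The cells came from pooled litter brains of wild-type CD-1 mice, an outbred strain, at P0-P1. They were enriched on Percoll, a density gradient, and then by adherence to the plate. They were cultured for 5 days by the methods (the labels state 5 to 7) with 10 ng/ml each of M-CSF and GM-CSF. After a night without serum they received PBS, 100 ng/ml LPS (bacterial lipopolysaccharide, which skews macrophages to the M1 state) or 20 ng/ml IL-4 (a cytokine that skews them to the M2a state) for 4 h. Every condition was measured on 3 arrays, and both growth factors were present during culture in all 3. Neither the labels nor the methods state that replicates came from separate preparations, and the p-values then cover only the spread from array to array, which may be technical.

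Before the results, 3 facts on the samples are needed. First, the stimuli acted: Il6, Nos2, Tnf and Il1b were higher with LPS by 8.73, 6.05, 5.01 and 5.66 on the log2 scale, and Chil3, Retnla and Arg1 were higher with IL-4 by 5.47, 5.19 and 3.15. The remaining gene of the 4 chosen to check IL-4, Ccl17, was not called with IL-4. Its means were 7.80 with PBS, 7.91 with IL-4 and 10.38 with LPS. Of the 4 LPS check genes, 3 were also called higher with IL-4. Second, the cells were enriched by density and then by adherence to the plate, after which non-adherent cells were removed. By staining, the paper reports mostly microglia and few neurons or astrocytes. Markers of microglia and of other cell types were both measured on the arrays. Among the markers of microglia and macrophages, Csf1r, the M-CSF receptor, lay between 10.77 and 11.90, Itgam between 10.19 and 10.62, and Tmem119 and Siglech, which define mature brain microglia, between 5.83 and 7.32. The astrocyte genes Gfap and Aqp4 lay between 10.70 and 12.09. These genes are examples. The 11 microglia and macrophage markers ran from 3.49 (Gpr34) to 11.90 (Csf1r), and the 10 astrocyte markers from 5.87 (S100b) to 12.09 (Aqp4). Since levels of different genes cannot be compared on the array, these values give no share of any cell type. Last, replicate 3 of PBS and replicate 3 of LPS stood apart from replicates 1 and 2. All 18 motile cilia genes, which ependymal cells express, were higher on these arrays than on both others of the condition, by medians of 1.80 (PBS) and 1.61 (LPS), and oligodendrocyte lineage markers were higher by medians of 0.94 and 0.81. On PBS replicate 3, all 11 microglia and macrophage markers and 9 of 10 astrocyte markers also lay above both other arrays, by medians of 0.51 and 0.65. On LPS replicate 3 this held for 7 of 11 and 8 of 10, with medians of 0.12 and 0.56. The median level of the cilia list was 7.52, 7.53 and 9.17 on the PBS arrays, 7.33, 7.06 and 8.83 on the LPS arrays and 8.68, 8.87 and 8.77 on the IL-4 arrays. In bulk RNA, fewer cells of a type and less RNA per cell cannot be told apart, and so a change of a gene below is a change of the culture.

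The promoters of 4 of the genes are printed here because they belong to the 3 genes that rose most with LPS and to Pros1, the ligand gene with a motif match (Gas6, which fell more, had none). RefSeq (GRCm38.p6) gave a promoter for all 8 genes, from 250 bases before to 50 bases after the start of the gene, and the 250 bases before the start are shown, 5′ to 3′ on the strand of the gene. They lie at chr11:46810549-46810798 (Timd4), chr2:128698665-128698914 (Mertk), chr2:83724147-83724396 (Itgav) and chr16:62854057-62854306 (Pros1), all on the plus strand. Capitals mark matches to the motifs named after the sequences.
Timd4: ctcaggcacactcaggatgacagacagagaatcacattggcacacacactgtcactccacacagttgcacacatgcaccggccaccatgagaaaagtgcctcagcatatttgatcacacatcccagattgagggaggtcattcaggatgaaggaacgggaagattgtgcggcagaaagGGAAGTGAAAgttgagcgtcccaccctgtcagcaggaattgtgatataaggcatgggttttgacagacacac
Mertk: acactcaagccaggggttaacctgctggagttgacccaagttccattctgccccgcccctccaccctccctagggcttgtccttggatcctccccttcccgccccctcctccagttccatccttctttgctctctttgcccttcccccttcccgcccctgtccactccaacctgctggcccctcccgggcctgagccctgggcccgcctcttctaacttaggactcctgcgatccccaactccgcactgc
Itgav: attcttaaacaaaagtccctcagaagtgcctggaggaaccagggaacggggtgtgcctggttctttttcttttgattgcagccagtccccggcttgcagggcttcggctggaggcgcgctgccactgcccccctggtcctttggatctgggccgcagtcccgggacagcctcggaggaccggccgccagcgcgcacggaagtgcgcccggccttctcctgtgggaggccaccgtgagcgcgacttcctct
Pros1: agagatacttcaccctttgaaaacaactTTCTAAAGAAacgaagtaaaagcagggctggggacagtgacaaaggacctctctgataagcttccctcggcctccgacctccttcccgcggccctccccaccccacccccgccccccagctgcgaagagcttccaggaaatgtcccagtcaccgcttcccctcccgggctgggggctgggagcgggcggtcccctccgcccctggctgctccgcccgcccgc

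The motifs were searched on both strands of the 300 bases. Timd4 held 1 match to the composite of the PU.1 and interferon regulatory factor motifs (GGAANNGAAA), at −72 to −63 from the start. This motif is found in 2.72% of the 32851 promoters of the table. Pros1 held 1 match to the STAT6 motif (TTCNNNNGAA, in 6.95% of promoters) at −222 to −213. The interferon response core (GAAANNGAAA, 3.44%), the AP-1 motif (TGANTCA, 7.81%) and the NF-kB motif (GGGANTTTCC, 0.411%) had no match in the promoters of the 8 genes, and Mertk, Axl, Tyro3, Gas6, Mfge8 and Itgav matched none of the 5. The composite and the interferon core both end in GAAA but begin differently (GGAA and GAAA), so the same bases cannot match both. A match is a description of the letters and not of binding.

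Levels are given as RMA log2 values, in which a difference of 1 is a 2-fold difference, and levels are compared between arrays and not between genes. Each comparison is the difference of mean log2 values ± SE from a linear model over all 9 arrays (limma), and a gene was called where p, adjusted over all 21212 rows, was under 0.05. LPS moved the 8 genes in opposite directions: 4 were called higher (Mertk, Axl, Itgav and Timd4), 2 were called lower (Gas6 and Pros1) and 2 were not called (Tyro3 and Mfge8). Over all rows, 15.4% were called higher, 22.4% lower and 37.8% in either direction in this comparison. With IL-4, 1 of the 8 was called (Itgav, higher) against 3.35% of all rows called higher, 2.05% lower and 5.4% in all. The level on the LPS and PBS arrays did not overlap for 6 of the 8 genes (45.7% of all rows), and that on the IL-4 and PBS arrays did not overlap for 3 of 8 (29% of all rows).

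**Figure D1:**
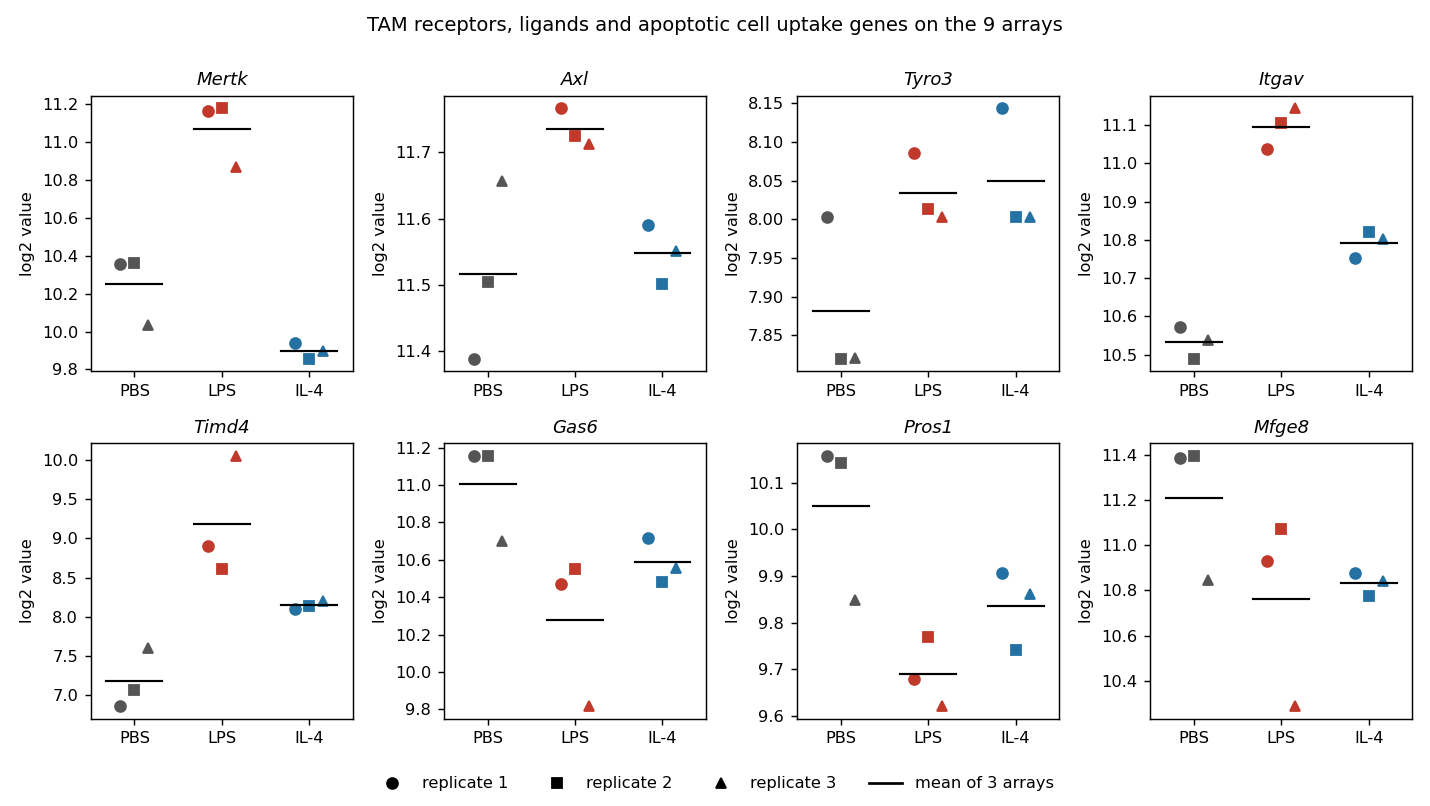
RMA log2 value (vertical axis, own scale in each panel) of the 8 genes on the PBS, LPS and IL-4 arrays. Marker shapes give the replicate and the line is the mean of 3 arrays. Mertk, Axl, Itgav and Timd4 lie higher on all 3 LPS arrays than on all 3 PBS arrays, Gas6 and Pros1 lie lower, and replicate 3 of PBS and of LPS is the lowest of its condition for Mertk, Gas6, Pros1 and Mfge8.

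Mertk encodes the TAM receptor best known for the engulfment of apoptotic cells. Its values were 10.36, 10.36 and 10.03 with PBS, 11.16, 11.18 and 10.87 with LPS and 9.94, 9.86 and 9.90 with IL-4. All LPS arrays lay above all PBS arrays, and all IL-4 arrays lay below them. Mertk rose with LPS by 0.82 ± 0.11, or 1.77-fold (limma adjusted p = 4.69e-04). The difference between arrays of the same number was 0.81, 0.82 and 0.83, although replicate 3 was the lowest array of both conditions, and the rise was called in 21 of 21 alternative analyses, which gave 0.71 to 0.93. With IL-4 the difference from PBS was −0.35 ± 0.11 and was not called (95% interval −0.61 to −0.10, adjusted p = 0.116). Without PBS replicate 3 that difference was −0.46 and was called (adjusted p = 0.0260). The direct contrast of LPS with IL-4 was 1.17 ± 0.11, or 2.25-fold higher with LPS (adjusted p = 5.44e-05). The order of the levels was thus LPS, PBS and IL-4, of which PBS and IL-4 did not pass the test against each other.

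Axl encodes the TAM receptor whose ligand is Gas6. Its values were 11.39, 11.50 and 11.66 with PBS, 11.77, 11.73 and 11.71 with LPS and 11.59, 11.50 and 11.55 with IL-4. The highest PBS array lay just below the lowest LPS array, and the IL-4 arrays lay within the range of PBS. Axl was called higher with LPS by 0.22 ± 0.07, or 1.16-fold (adjusted p = 0.0378). The call did not hold in 12 of 21 alternatives, which gave 0.15 to 0.33. Among them were the fits without PBS replicates 1 and 2 (0.15 and 0.21, with adjusted p = 0.112 and 0.0994), LPS replicates 1, 2 and 3 (0.105, 0.0793 and 0.0537) and IL-4 replicates 1, 2 and 3 (0.0533, 0.0561 and 0.0607). Blocked by replicate number it was called over 9 arrays (adjusted p = 0.0489) and not over the 6 arrays of the comparison (0.0604). With IL-4 the difference from PBS was 0.03 ± 0.07 (adjusted p = 0.834), and LPS against IL-4 gave 0.19 ± 0.07 (adjusted p = 0.0554), which was called in 10 of 21 alternatives, among them those without PBS replicate 1 (0.0345) and without PBS replicate 3 (0.0189).

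Tyro3 encodes the TAM receptor best known from neurons. Its values were 8.003, 7.820 and 7.821 with PBS, 8.086, 8.013 and 8.003 with LPS and 8.144, 8.003 and 8.003 with IL-4, and 4 of the 9 arrays held the identical value 8.00295. The conditions overlapped at this value. Tyro3 was called in none of the 3 comparisons, with a difference of 0.15 ± 0.07 for LPS against PBS (95% interval −0.00 to 0.31, adjusted p = 0.119) and of 0.17 ± 0.07 for IL-4 against PBS (95% interval 0.01 to 0.33, adjusted p = 0.212). The difference with LPS was called without PBS replicate 1 (0.21, adjusted p = 0.0406) and when blocked by replicate number over 9 arrays (0.0387), but not over 6 (0.0578). It was also called after a further quantile normalization (0.27, adjusted p = 0.0187) and when the array medians were subtracted (0.27, adjusted p = 0.0199), a scaling that adds 0.11 to the median of all rows in this comparison.

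The receptor genes therefore did not move alike. In the plot of the differences, Mertk lay well above 0 with LPS, while the interval of Axl began near 0 and that of Tyro3 reached 0.

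**Figure D2:**
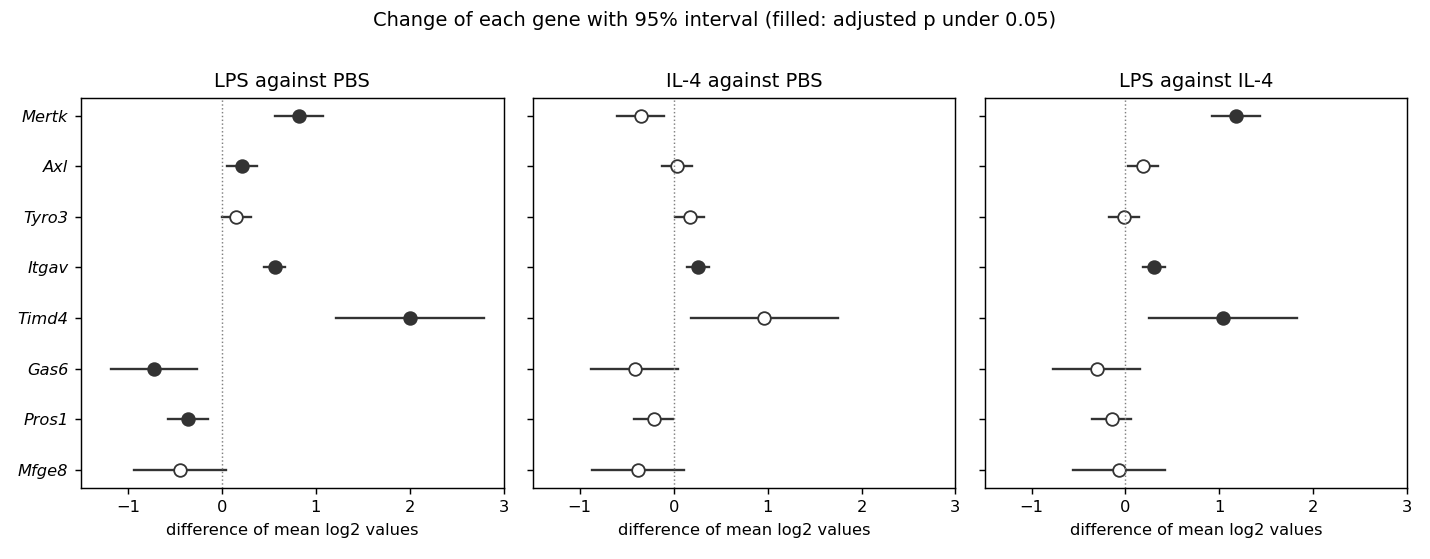
Difference of mean log2 values (horizontal axis) of the 8 genes for LPS against PBS, IL-4 against PBS and LPS against IL-4. Points are the differences, bars the 95% intervals of the moderated fit over 9 arrays, and filled points have an adjusted p under 0.05. Timd4 has the largest rise with LPS (2.004) and the widest interval, and Itgav is the only gene of the 8 that is filled in all 3 panels.

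Timd4 changed most of the 8 genes. Its values were 6.86, 7.07 and 7.61 with PBS, 8.90, 8.60 and 10.05 with LPS and 8.11, 8.14 and 8.20 with IL-4. All LPS arrays lay above all IL-4 arrays, which lay above all PBS arrays. Timd4 rose with LPS by 2.004 ± 0.34, or 4.01-fold (adjusted p = 0.00180), and 98.7% of all rows had a smaller or more negative difference. The rise was called in 20 of 21 alternatives, which gave 1.57 to 2.29, and was lost only in the methods' t-test (adjusted p = 0.0574). With IL-4 the difference from PBS was 0.97 ± 0.34 (adjusted p = 0.158, 99.5% of rows lower), which was not called although the arrays did not overlap. It was called without LPS replicate 3 (adjusted p = 0.0187), in a fit to only the 6 arrays (0.0368) and without replicate 3 of both PBS and LPS (1.18, adjusted p = 2.55e-04).

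The difference of the Timd4 responses, LPS against IL-4, was 1.04 ± 0.34 (adjusted p = 0.0364). It was lost without PBS replicate 2 (0.0521), LPS replicate 1 (0.0522) and IL-4 replicates 1, 2 and 3 (0.0884, 0.0858 and 0.0830). Without LPS replicate 3 it was called but smaller, at 0.60 (adjusted p = 0.0370). Timd4 alone of the 8 genes was highest at replicate 3 in both PBS and LPS, by 0.64 and 1.297 above the mean of the other arrays, which 21.8% of all rows share. With the mean of the motile cilia list as a covariate the difference was 2.18 for LPS against PBS (adjusted p = 1.69e-06) and 0.60 for IL-4 against PBS (adjusted p = 0.0203). The median of that list was itself higher on the IL-4 arrays than on PBS replicates 1 and 2.

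Itgav encodes the αv chain, whose integrins bind matrix proteins and, with β3 or β5, also receive Mfge8. Its values were 10.57, 10.49 and 10.54 with PBS, 11.04, 11.11 and 11.14 with LPS and 10.75, 10.82 and 10.80 with IL-4. No 2 conditions overlapped, and the order was LPS, IL-4 and PBS with each neighbour passing the test. Itgav rose with LPS by 0.56 ± 0.05, or 1.48-fold (adjusted p = 4.07e-05), and by 0.26 ± 0.05, or 1.195-fold, with IL-4 (adjusted p = 0.0233). The LPS level exceeded the IL-4 level by 0.30 ± 0.05 (adjusted p = 0.00137). Both contrasts of LPS were called in 21 of 21 alternatives. The rise with IL-4 was called in 14 of 21 and lost without PBS replicates 1 and 2 (0.0587 and 0.103), without IL-4 replicates 1, 2 and 3 (0.0566, 0.101 and 0.100), with the array medians subtracted (0.0641) and when blocked by replicate number over 6 arrays (0.126).

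Gas6 encodes the ligand of all 3 TAM receptors. Its values were 11.15, 11.16 and 10.70 with PBS, 10.47, 10.55 and 9.82 with LPS and 10.72, 10.48 and 10.56 with IL-4. The LPS arrays lay below the PBS arrays without overlap, while 1 IL-4 array lay within the PBS range. Gas6 fell with LPS by 0.72 ± 0.20 on the log2 scale, 1.65-fold lower (adjusted p = 0.0211). The call held in 17 of 21 alternatives. Leaving out PBS replicate 1 or 2 gave −0.65 in both cases and ended the call (adjusted p = 0.0701 and 0.0726). It was also lost in the methods' t-test and in the fit to only the 6 arrays, with adjusted p up to 0.153. With IL-4 the difference from PBS was −0.42 ± 0.20 (adjusted p = 0.285), and LPS against IL-4 gave −0.31 ± 0.20 (adjusted p = 0.235).

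Pros1 encodes protein S, the other TAM ligand, which is also an anticoagulant of plasma. Its values were 10.16, 10.14 and 9.85 with PBS, 9.68, 9.77 and 9.62 with LPS and 9.91, 9.74 and 9.86 with IL-4. Again the LPS arrays lay below all PBS arrays and the IL-4 arrays overlapped with both. Pros1 fell with LPS by 0.36 ± 0.09 on the log2 scale, 1.28-fold lower (adjusted p = 0.0141). The call held in 17 of 21 alternatives. Leaving out PBS replicate 1 or 2 gave −0.31 in both cases and ended the call (adjusted p = 0.0521 and 0.0549), as did subtraction of the array medians (−0.25, adjusted p = 0.0804). It was also lost in the methods' t-test (adjusted p = 0.0940). With IL-4 the difference from PBS was −0.21 ± 0.09 (adjusted p = 0.235), which was called without PBS replicate 3 (−0.31, adjusted p = 0.0319). LPS against IL-4 gave −0.15 ± 0.09 (adjusted p = 0.213).

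Mfge8 encodes the bridging protein between phosphatidylserine and αv integrins. Its values were 11.39, 11.40 and 10.85 with PBS, 10.93, 11.07 and 10.29 with LPS and 10.88, 10.78 and 10.84 with IL-4. PBS replicate 3 lay below 2 of the LPS arrays, so the groups overlapped. The difference was −0.45 ± 0.21 for LPS against PBS (95% interval −0.94 to 0.04, adjusted p = 0.140) and −0.38 ± 0.21 for IL-4 against PBS (adjusted p = 0.358), and neither was called. Blocked by replicate number, the fall with LPS was called over the 6 arrays of the comparison (adjusted p = 0.00310) and not over 9 (0.0512), and it was called without PBS replicate 3 (−0.63, adjusted p = 0.0439). Without LPS replicate 3 it was −0.21 (adjusted p = 0.337). LPS against IL-4 gave −0.07 ± 0.21 (adjusted p = 0.804), and 0.17 without LPS replicate 3 (adjusted p = 0.395).

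Both called ligands were thus lower on the LPS arrays on which Mertk and Axl were higher. In LPS against IL-4, 3 of the 8 genes were called, all higher with LPS (Mertk, Itgav and Timd4), beside 21% of all rows called higher, 25.9% lower and 46.9% in either direction. Groups did not overlap for 4 of 8 in this comparison (59.9% of all rows). With the mean of the motile cilia list as a covariate, Gas6 (−0.63, adjusted p = 9.15e-05), Pros1 (−0.26, adjusted p = 0.00982) and Mfge8 (−0.42, adjusted p = 3.32e-04) were called lower with LPS than with IL-4. The list itself differed between these conditions, with medians of 7.33, 7.06 and 8.83 on the LPS arrays and 8.68, 8.87 and 8.77 on the IL-4 arrays. Its part cannot be told apart from that of the stimulus. Without replicate 3 of LPS and PBS, Mfge8 was instead called higher with LPS, at 0.17.

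The 4 genes Mertk, Gas6, Pros1 and Mfge8 were lowest at replicate 3 in both PBS and LPS, which 33% of all rows share. Gas6 was lower there by 0.46 and 0.69 than the mean of replicates 1 and 2, and Mfge8 by 0.54 and 0.72. On the IL-4 arrays replicate 3 differed from the mean of replicates 1 and 2 by at most 0.08 for these 8 genes. Itgav differed by 0.01 (PBS) and 0.07 (LPS). The part of the motile cilia, oligodendrocyte lineage, microglia and astrocyte markers in these differences was not tested.

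**Figure D3:**
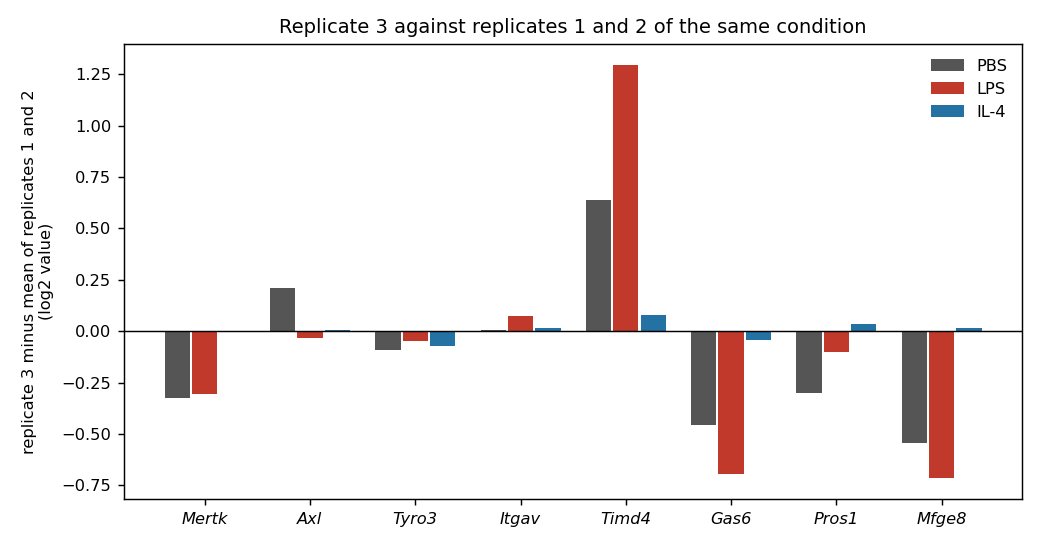
Replicate 3 minus the mean of replicates 1 and 2 (vertical axis, log2 value) for the 8 genes in each condition. The bars of Mertk, Gas6, Pros1 and Mfge8 point down and those of Timd4 point up in PBS and in LPS, and the IL-4 bars stay within 0.08 of 0.

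Of β3 and β5, the only partner chains of αv examined here, the gene of β5 was called with LPS and that of β3 with IL-4 (values chosen after they were seen). Itgb5, the β5 chain, was measured at 11.37, 11.43 and 11.75 with PBS, 10.65, 10.67 and 10.46 with LPS and 11.24, 11.25 and 11.24 with IL-4, and it was lower on all LPS arrays. It fell with LPS by 0.92 ± 0.10 on the log2 scale (adjusted p = 1.31e-04), with −1.01 to −0.74 over the alternatives and the call held in 21 of 21, while IL-4 against PBS gave −0.27 ± 0.10 (adjusted p = 0.180). Itgb3, the β3 chain, was measured at 7.23, 7.23 and 6.65 with PBS, 6.99, 7.04 and 6.58 with LPS and 8.56, 8.71 and 8.76 with IL-4. It rose with IL-4 by 1.64 ± 0.18 (adjusted p = 0.00149), a call that held in 21 of 21 alternatives, while LPS against PBS gave −0.16 ± 0.18 (adjusted p = 0.513). The response of Itgb3 differed between the stimuli, at −1.81 for LPS against IL-4 (adjusted p = 6.58e-05), and so did that of Itgb5 at −0.65 (adjusted p = 8.93e-04). With IL-4, 6 of 10 fibroblast and meningeal markers were called higher as well, beside 3.35% of all rows, with a median difference of 0.41. Their median level was 8.32 to 8.76 with PBS, 8.40 to 8.59 with LPS and 9.14 to 9.24 with IL-4. Of 8 endothelial markers 3 were called higher with IL-4 (3.35% of all rows), and the median level of the 8 was 5.83 to 6.02 with PBS and 6.07 to 6.26 with IL-4. The part of both marker lists in the rise of Itgb3 was not tested.

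**Figure D4:**
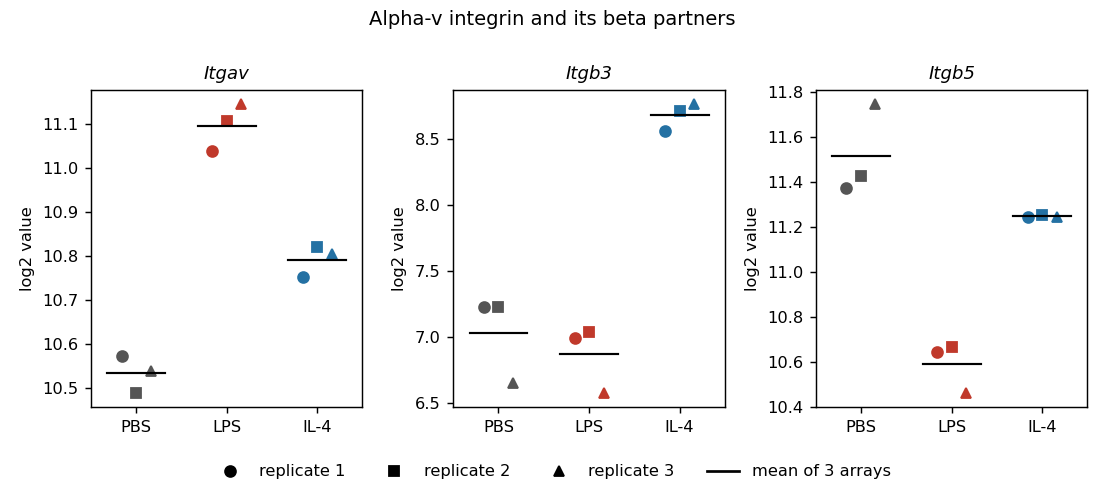
RMA log2 value (vertical axis, own scale in each panel) of the αv chain gene Itgav and of the β chain genes Itgb3 and Itgb5 on the 9 arrays, with the mean of 3 arrays as a line. Itgav is highest with LPS, Itgb3 is highest with IL-4 and Itgb5 is lowest with LPS, in each case on all 3 arrays.

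Another 56 genes of apoptotic cell uptake were measured, of 58 listed. With LPS, 25 were called lower, 8 higher and 23 not, which makes 58.9% called beside the 37.8% of all rows (22.4% lower and 15.4% higher), with a median difference of −0.27 against 0.01 over all rows. With the array medians subtracted, 17 were called lower and 10 higher. With IL-4, 6 were called, 3 in each direction (10.7%, beside 5.4% of all rows). In LPS against IL-4, 23 were lower, 11 higher and 22 not called. That makes 60.7% called beside 46.9% of all rows (25.9% lower and 21% higher). In this comparison 15 and 15 were called with the array medians subtracted. Beside these falls, 7 of 11 microglia and macrophage markers were called lower with LPS and none higher, with a median difference of −0.70. The median level of these markers was 8.12, 8.21 and 9.02 with PBS, 7.74, 7.60 and 8.87 with LPS and 9.02, 8.90 and 8.93 with IL-4, and their part in the falls of the uptake genes was not tested.

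Of the 17 integrin partners and other engulfment receptors, 8 fell and 3 rose with LPS (64.7% called, beside 37.8% of all rows). Cd300lb, an activating receptor of the CD300 family, fell by 2.82 ± 0.12 on the log2 scale (adjusted p = 5.70e-07), from 9.24 to 9.56 on the PBS arrays to 6.37 to 6.80 on the LPS arrays. Cd14, the LPS coreceptor that also binds apoptotic cells, rose by 1.64 ± 0.09 (adjusted p = 1.96e-06). The calls of Cd300lb and Cd14 with LPS held in 21 of 21 alternatives. Havcr1, the gene of the phosphatidylserine receptor TIM-1 and a relative of Timd4, rose by 0.91 ± 0.25 (adjusted p = 0.0200). It was dim, at 4.69 to 4.93 with PBS and 5.18 to 6.38 with LPS. The call was lost without PBS replicate 2 (0.0665), in the methods' t-test and in the fit to only the 6 arrays (adjusted p up to 0.159). Without LPS replicate 3 the rise was called at 0.59 (adjusted p = 0.0115). The bright receptor genes Cd36, a scavenger receptor, and Cd300lf, a phosphatidylserine receptor, gave −0.41 ± 0.36 (adjusted p = 0.421) and −0.43 ± 0.38 (adjusted p = 0.414). Blocked by replicate number, both were called lower over 6 arrays (adjusted p = 0.00252 and 0.0115) and not over 9.

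With IL-4, 2 receptors fell and 1, Itgb3, rose (17.6% called, beside 5.4% of all rows). Trem2, a lipid-binding receptor of microglia, fell by 0.47 ± 0.06 on the log2 scale (adjusted p = 0.00302, or 0.0523 blocked by replicate number over 6 arrays) and also fell with LPS, by 0.81 ± 0.06 (adjusted p = 1.18e-05). Cd14 was lower by 0.43 ± 0.09 with IL-4 (adjusted p = 0.0293), a call that 6 of 9 fits without 1 array lost, namely those without PBS replicates 1 and 2, LPS replicate 2 and IL-4 replicates 1, 2 and 3 (adjusted p from 0.0524 to 0.104). The methods' t-test lost this call as well. Tyrobp, the signaling adaptor of Trem2, gave −0.20 ± 0.07 (adjusted p = 0.177) and Lrp1, a receptor that works with calreticulin, −0.15 ± 0.08 (adjusted p = 0.327). In LPS against IL-4, 4 receptors were called higher and 7 lower, beside 21% and 25.9% of all rows. Cd300lb gave −3.29, Cd14 2.07 and Havcr1 0.79 (adjusted p = 0.0311). The call of Havcr1 held in 12 of 20 alternatives. Among others it was lost without LPS replicate 1 and without each IL-4 array (adjusted p from 0.0663 to 0.0902), and the value was 0.47 without LPS replicate 3 (adjusted p = 0.0252).

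Of the 11 other bridging proteins, 2 were called lower with LPS and none higher, beside 22.4% and 15.4% of all rows. These were C1qa, a chain of complement C1q, at −0.39 ± 0.11 (adjusted p = 0.0210) and Calr, which encodes calreticulin, at −0.21 ± 0.06 (adjusted p = 0.0303). The call of C1qa was lost without LPS replicates 1 and 2 (0.0639 to 0.0714), and that of Calr without PBS replicates 1 and 2, LPS replicate 3 and IL-4 replicates 2 and 3 (0.0506 to 0.0966). Both calls were also lost in the methods' t-test, in the fit to only the 6 arrays and with the array medians subtracted. There adjusted p reached 0.136 for C1qa and 0.334 for Calr. Anxa5, which encodes the phosphatidylserine-binding annexin A5, gave −0.08 ± 0.05 (adjusted p = 0.215) and Lgals3, which encodes galectin-3, gave −0.36 ± 0.19 (adjusted p = 0.165, or 0.00964 blocked by replicate number over 6 arrays).

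Edil3, which like Mfge8 encodes a protein that bridges phosphatidylserine and αv integrins, was the 1 bridging gene called with IL-4 (9.09%, beside 5.4% of all rows). It rose by 0.64 ± 0.10 (adjusted p = 0.0112), a call lost without PBS replicate 2 and without IL-4 replicate 3 (0.0516 and 0.0545). The methods' t-test also lost this call (adjusted p = 0.0697). LPS against PBS gave −0.02 ± 0.10 for Edil3 (adjusted p = 0.888), and LPS against IL-4 gave −0.66 ± 0.10 (adjusted p = 0.00105). In that contrast C1qa (−0.58) and Thbs1 (−0.52, the gene of thrombospondin 1) were also lower and Tulp1 was higher (0.31). Tulp1 was dim, at 6.26 to 6.35 with LPS and 5.95 to 6.06 with IL-4. The call of Thbs1 was lost without IL-4 replicate 1 (0.0536), in the methods' t-test and with the array medians subtracted (adjusted p up to 0.0718).

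Of the 13 engulfment signaling genes, 6 fell and 2 rose with LPS (61.5% called, beside 37.8% of all rows). Elmo2, a subunit of the exchange factor that activates Rac, fell by 1.09 ± 0.05 on the log2 scale (adjusted p = 8.84e-07), and Dock2, a Rac exchange factor of blood cells, by 0.56 ± 0.11 (adjusted p = 0.00325). Gulp1, an engulfment adaptor, fell by 0.78 ± 0.05 with LPS (adjusted p = 3.48e-06) and rose by 0.34 ± 0.05 with IL-4 (adjusted p = 0.00480, or 0.0833 blocked over 6 arrays), and LPS against IL-4 gave −1.13 ± 0.05 (adjusted p = 4.12e-07). Vav1, another Rac exchange factor, fell by 0.50 ± 0.07 with LPS (adjusted p = 7.25e-04). It was lower by 0.39 ± 0.07 with IL-4 (adjusted p = 0.0210), a call lost without PBS replicates 1 and 2 and without each IL-4 array (0.0790 to 0.0890). The methods' t-test also lost this call (adjusted p = 0.119). Rac2 gave 0.02 ± 0.08 with LPS and Abca1, a lipid transporter, −0.26 ± 0.11 (adjusted p = 0.901 and 0.0890). Abca1 was called when blocked by replicate number over 9 and over 6 arrays (0.0479 and 0.0451). In LPS against IL-4, Vav3 was higher by 0.96 ± 0.22 (adjusted p = 0.00738), and Abca1 was lower by 0.39 ± 0.11 (adjusted p = 0.0184), a call lost without LPS replicates 1 and 2 and IL-4 replicates 2 and 3 (0.0525 to 0.0589). Subtraction of the array medians also ended the call of Abca1 (adjusted p = 0.0664).

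All 6 genes of vitamin K carboxylation, receptor shedding and the brakes on uptake were called with LPS, 2 higher and 4 lower, and none with IL-4. Over all rows 37.8% were called with LPS and 5.4% with IL-4. Cd47, the "do not eat me" signal, rose by 0.81 ± 0.06 (adjusted p = 1.53e-05), from between 10.48 and 10.60 on the PBS arrays to between 11.27 and 11.41 on the LPS arrays. Sirpa, the other brake gene of the list, was called lower with LPS. It lay between 12.02 and 12.16 on the PBS arrays and between 11.71 and 11.88 on the LPS arrays. Vkorc1, the reductase that recycles the vitamin K needed for active Gas6 and protein S, fell by 0.40 ± 0.07 on the log2 scale (adjusted p = 0.00145). Adam17, the protease known to shed Mertk from the cell surface, rose by 0.34 ± 0.11 (adjusted p = 0.0345), while Adam10, a related sheddase, fell by 0.50 ± 0.09 (adjusted p = 0.00217). The call of Adam17 was lost in 7 of 9 fits without 1 array, those without PBS replicates 1 and 3, LPS replicates 1 and 2 and each IL-4 array (0.0541 to 0.115). It was also lost in the methods' t-test, in the fit to only the 6 arrays and after a further quantile normalization (adjusted p up to 0.177). The calls of Cd47, Vkorc1 and Adam10 held in 21 of 21 alternatives.

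Of the 9 genes of the phagosome and of digestion, 5 fell and 1 rose with LPS (66.7% called, beside 37.8% of all rows), and none was called with IL-4 (5.4% of all rows). Dnase2a, the lysosomal DNase that degrades engulfed DNA, fell by 1.07 ± 0.16 on the log2 scale (adjusted p = 8.59e-04). Pik3c3, Uvrag and Rubcn, which belong to the class III PI3-kinase complexes that act on the phagosome, fell by 0.67 ± 0.09, 0.56 ± 0.11 and 0.52 ± 0.06. These 3 had adjusted p = 5.39e-04, 0.00451 and 1.78e-04. Lamp2, a lysosomal membrane protein, gave −0.08 ± 0.05 and Rab7, a GTPase of late endosomes, −0.14 ± 0.06 (adjusted p = 0.232 and 0.0890).

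**Figure D5:**
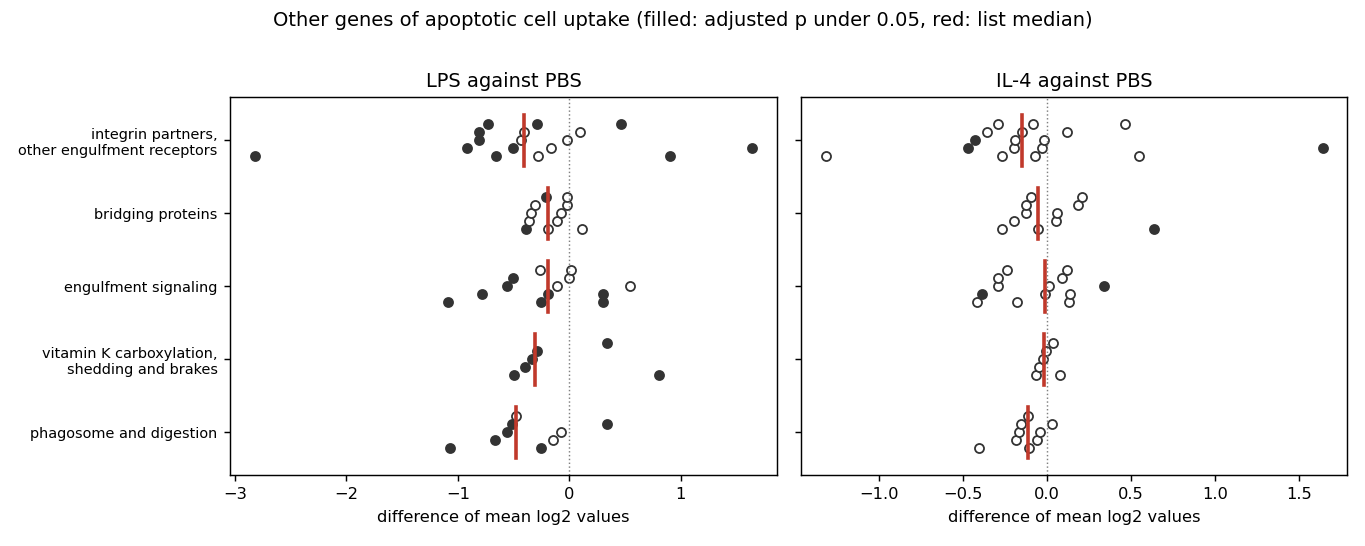
Difference of mean log2 values (horizontal axis) of 56 other uptake genes by list, for LPS against PBS and for IL-4 against PBS. Each point is a gene, filled points have an adjusted p under 0.05 and the red line is the median of the list. With LPS 25 genes are filled to the left of 0 and 8 to the right, and with IL-4 3 are filled on each side, Itgb3 farthest right at 1.64. The horizontal scales of the panels differ.

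Genes whose values followed those of a member most closely over the 9 arrays are given as a description, since the arrays fall into 3 conditions and many genes share the order of the means. Niban1, Arhgef3 and Slfn3 were closest to Mertk (Pearson r = 0.998, 0.997 and 0.997), with 477 genes above 0.95. Kdm6b, Socs1 and Hes1 were closest to Itgav (0.995, 0.992 and 0.991, with 177 genes above 0.95), and Appbp2, Slc13a3 and Mtmr11 to Timd4 (0.991, 0.991 and 0.988, with 68). Pigs, Gltp and Gaa were closest to Gas6 (0.993, 0.991 and 0.991, with 176) and Wdr62, Ccdc12 and Tmem120a to Pros1 (0.989, 0.984 and 0.978, with 49). Axl had 1 such gene, Eci2 (0.962), followed by Hp and Rcsd1 (0.947 and 0.945).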

How the data were processed

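Total RNA of the 9 cultures was hybridized to the Affymetrix Mouse Exon 1.0 ST array. The values are on the log2 scale, as deposited, and were made by the authors with RMA (background correction, quantile normalization and summary of the probes) in affy, with no version given in the sources used here. The table holds 21212 rows between 2.05 and 13.06, and 18786 of them had a single gene symbol. Arrays have no read depth, so their number limits the precision.

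Conditions came from the sample labels. The contrasts LPS against PBS, IL-4 against PBS and LPS against IL-4 were taken from 1 linear model with a mean per condition (limma 3.58.1 with eBayes in R 4.3.3, with 6 residual and 2.38 prior degrees of freedom), and p was adjusted over all rows by Benjamini and Hochberg. The first contrasts share the PBS arrays. The 8 genes, the lists, the motifs and the alternatives were chosen with earlier results of these data known. Named from the other uptake lists were, per list and comparison, the 4 called members with the largest changes and the 2 brightest that missed, and for each called gene of the 8 the 3 closest genes. The values of Itgb3 and Itgb5, and of Trem2, Edil3 and Sirpa with LPS, fall outside this rule in some comparisons. Of 58 other uptake genes, Jedi1 and Ptk2 had no row under their symbols.

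Same-numbered LPS and PBS arrays deviated together from their condition means (r = 0.578, 0.651 and 0.800), whereas same-numbered IL-4 arrays did not do so throughout, either with PBS (0.339, −0.255 and 0.0752) or with LPS (0.289, −0.228 and 0.0593). The fits as reported have no replicate term and use no pairing. Numbers enter only the blocked alternatives, where all arrays of a fit were blocked by number, those of IL-4 included. Blocked values that involve IL-4 arrays therefore rest on numbers that may not pair. For LPS against PBS the blocked value is given where it changes a call, and for the other contrasts among the limits.

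There were 21 alternatives: the methods' t-test, a fit to the 6 arrays of 1 comparison, eBayes with a trend, eBayes in its robust form, weights for arrays, a further quantile normalization, subtraction of array medians, the 14142 brightest rows alone, blocks of replicate number over 9 or 6 arrays, omission of each of the 9 arrays, omission of replicate 3 of LPS and PBS together, and the mean of the motile cilia list as a covariate. The fit was tested on simulated data. Tables and figures were made in Python 3.11.15 (pandas 2.3.3, matplotlib 3.10.9).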

Additional observations from a re-analysis of the deposited data

How the results depend on the processing

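Of the 8 genes, 6 were called for LPS against PBS, 1 for IL-4 against PBS and 3 for LPS against IL-4. For LPS against PBS the count was 2 by the methods' t-test and 3 to 7 when 1 array was left out, the lowest without PBS replicate 2. With the replicate block it was 7 over 9 arrays and 6 over 6, and in the other comparisons the block gave 1 and 0 (IL-4 against PBS) and 3 and 3 (LPS against IL-4). For IL-4 against PBS the count was 2 with only the 6 arrays, 7 with array weights (PBS and LPS replicate 3 had weights of 0.200 and 0.195), 0 with array medians subtracted, 0 with the replicate block over 6 arrays, 0 to 3 when 1 array was left out, 6 without replicate 3 of LPS and PBS and 3 with the motile cilia covariate. The count was 3 without PBS replicate 3, 2 without LPS replicate 3 and 0 without PBS replicate 1, PBS replicate 2 or any IL-4 array. For LPS against IL-4 it was 5 without replicate 3 of LPS and PBS, 7 with the covariate (4 higher and 3 lower with LPS) and 2 to 4 when 1 array was left out. Of the other uptake genes, 21 were called by the t-test for LPS against PBS (33 as reported). For IL-4 against PBS 6 were called as reported, 36 with array weights, 2 with the replicate block over 6 arrays, 32 without replicate 3 of LPS and PBS, 12 with the covariate and 3 to 10 when 1 array was left out (10 without PBS or LPS replicate 3, 3 without PBS replicate 2 or IL-4 replicate 3). Over all rows, the share of calls that were higher went from 40.8% to 63.9% (LPS against PBS), 62.0% to 50.3% (IL-4 against PBS) and 44.8% to 72.1% (LPS against IL-4) when array medians were subtracted, which shifted the median of all rows by 0.11, −0.04 and 0.15.

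Among the 8 genes, Itgb3 and Itgb5, the sign changed only for differences that were not called as reported. Axl for IL-4 against PBS was −0.00955 with array medians subtracted, −0.000935 with the covariate and −0.0330 to 0.101 when 1 array was left out, below 0 only without PBS replicate 1. For LPS against IL-4, Tyro3 was 0.0140 with array weights, 0.136 with quantile normalization, 0.138 with array medians subtracted and −0.0420 to 0.0310 when 1 array was left out, above 0 only without IL-4 replicate 1, Pros1 was 0.00713 with array medians subtracted, and Mfge8 was 0.134 with array weights, 0.0852 with array medians subtracted, −0.223 to 0.170 when 1 array was left out (above 0 only without LPS replicate 3) and 0.170 without replicate 3 of LPS and PBS, where it was called (adjusted p = 0.0350), but with the covariate it was called in the other direction at −0.417 (adjusted p = 3.32e-04). Outside LPS against PBS, the block over 6 arrays also ended the IL-4 calls of Trem2, Gulp1, Cd14 and Vav1 (adjusted p = 0.0523, 0.0833, 0.0641 and 0.118) and the LPS-against-IL-4 call of Havcr1 (0.0655), and in LPS against IL-4 Cd36 was called with it (0.0289). For LPS against PBS, the uncalled differences of Anxa5, Lamp2 and Rac2 changed sign in 1, 1 and 6 of 21 alternatives. The cause of these changes was not tested.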
